A study of Dugesia japonica with 6 samples.

Results

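The transcripts described here are 150 assembled contigs of the planarian Dugesia japonica that were low in both libraries numbered 2, AdOx replicate 2 and control replicate 2. They were chosen from 14313 contigs with a mean of at least 8 CPM (reads per 1000000 reads of the file), which were kept out of 44723 contigs with reads. The contigs were selected on their measured levels. On the scale log2(CPM + 0.5), the gap of a contig was its lowest value among AdOx 1, AdOx 3, control 1 and control 3 minus its higher value of AdOx 2 and control 2, and the 150 largest gaps were taken. The difference between the libraries numbered 2 and the other 4 is therefore the choice itself, and it is described here without a test.

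The data are poly(A)-selected RNA-seq read counts of intact animals, with 3 libraries for each of 2 groups. The AdOx animals spent 1 month in bottled spring water that held 100 µM adenosine dialdehyde (AdOx), and the control animals as long in water with only the hydrochloric acid vehicle. All animals came from a colony fed on liver and starved before the start, and each library pooled 6 of them. The libraries held between 15606794 counts (AdOx 2) and 20385026 counts (control 1), and control 2 held 18687643. AdOx 2 also had the fewest contigs with reads, 44181, against 44282 to 44455 in the other libraries, control 2 included at 44325. The part of depth in the results below was not tested. The labels do not tie a replicate number to a shared vessel, day or run. Nothing in them tells whether replicates came from different vessels, and p-values therefore reflect library-to-library spread that may be technical.

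Planarians are flatworms that rebuild any lost body part from adult stem cells called neoblasts, which also replace worn cells in intact animals. AdOx is an adenosine analogue that blocks S-adenosylhomocysteine hydrolase, the enzyme that removes S-adenosylhomocysteine, the product that builds up when methyl groups are transferred and that itself inhibits methyltransferases. The study asked which genes differed in animals adapted to this inhibitor. A contig is a transcript sequence rebuilt from reads, and contigs whose IDs share a component part are usually splice forms, alleles or close copies of one gene. Gene names are paired with no contig ID in the files, so neither the functions of the 150 contigs nor the markers of planarian cell types could be read, and no sequence is shown. In RNA of whole animals, fewer cells of a type and less RNA per cell cannot be told apart.

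The contigs low in the libraries numbered 2 were lower by a modest amount, the lower end of which the choice of the contigs fixes. Their median level was 12.7 CPM in AdOx 2, against 18.8 and 20.6 CPM in AdOx 1 and 3, and 14.4 CPM in control 2, against 20.2 and 19.1 CPM in control 1 and 3. In AdOx the level of replicate 2 lay a median of 1.43-fold under the mean of replicates 1 and 3, with a range over the 150 contigs from 1.22-fold to 2.23-fold. In control the median was 1.32-fold and the range 1.22-fold to 1.77-fold. A level at least 1.5-fold lower was present in AdOx in 54 of the 150 contigs (36.0%), against 2.42% of all kept contigs. It was present in control in 12 (8.00%), against 0.196%, and in both groups in 10 (6.67%), against 0.140%. Over all kept contigs, 20 had it in both groups. A 2-fold difference was reached in AdOx by 5 of the 150, against 10 of all kept contigs, and in control by none of either. These counts rest on the values that chose the contigs. None of the 150 was absent from any library.

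Summed over the 150 contigs, the level was 4586 CPM in AdOx 2, against 6689 and 7085 CPM in AdOx 1 and 3, and 5108 CPM in control 2, against 6825 and 6605 CPM in control 1 and 3. The sums were thus 1.5-fold lower in AdOx 2 and 1.31-fold lower in control 2 than the mean of the group's other libraries. The most abundant of the 150 made up 16.3% of their summed level. Without it the sum was 3847 CPM in AdOx 2, against 5573 and 5939 CPM in AdOx 1 and 3, and 4256 CPM in control 2, against 5724 and 5555 CPM in control 1 and 3.

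**Figure D1:**
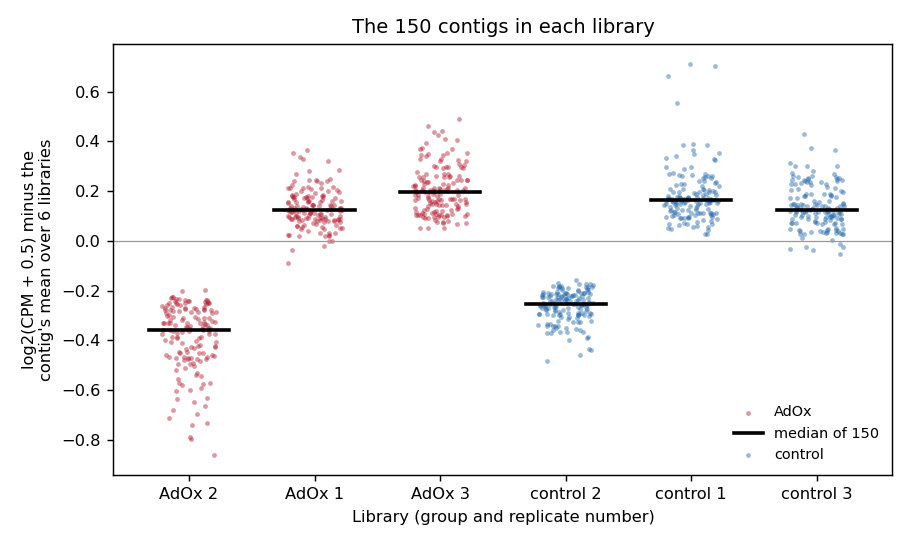
Each point is one of the 150 contigs in one library, as log2(CPM + 0.5) minus the contig's mean over the 6 libraries; red points are AdOx, blue points control, and black bars the medians of the 150 contigs. AdOx 2 has a median of -0.36 and control 2 of -0.25, while the other 4 libraries have medians between 0.12 and 0.20, a separation that the choice of the contigs fixes.

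The contig with the largest gap, comp84463_c0_seq1, is the only contig listed for its component. It had 22.3 CPM in AdOx 2, against 42.6 and 53.7 CPM in AdOx 1 and 3, and 27.7 CPM in control 2, against 57.3 and 42.6 CPM in control 1 and 3. The counts behind these values were 348 in AdOx 2, against 723 and 909 in AdOx 1 and 3, and 517 in control 2, against 1169 and 774 in control 1 and 3. AdOx 2 lay below control 2, with a log2 difference of -0.31, against a median of -0.11 over the 150 contigs. The other 4 libraries were spread without a split by group.

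The second, comp140744_c0_seq4, had 5.32 CPM in AdOx 2, against 12.0 and 12.9 CPM in AdOx 1 and 3, and 8.08 CPM in control 2, against 12.8 and 12.0 CPM in control 1 and 3. Here the other 4 libraries lay close together and AdOx 2 was the lowest of all 6. It has 1 other contig in its component and holds 17.0% of the component's reads, so its counts may in part be shared. The reads of that other contig were lower in the libraries numbered 2 as well, by -0.37 on the log2 scale in AdOx and -0.28 in control, against -1.16 and -0.59 for comp140744_c0_seq4 itself.

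Around rank 150 the gap declined without a break. On the log2 scale it was 0.61 at rank 1, 0.33 at rank 50, 0.30 at rank 100 and 0.28 at rank 150, and it was still 0.23 at rank 300 and 0.14 at rank 1000. The last contig chosen had 14.9 CPM in AdOx 2, against 21.4 and 20.4 CPM in AdOx 1 and 3, and 16.8 CPM in control 2, against 21.4 and 21.2 CPM in control 1 and 3, with a gap of 0.2757. The first contig left out had 21.8 CPM in AdOx 2, against 30.3 and 28.2 CPM in AdOx 1 and 3, and 22.7 CPM in control 2, against 28.4 and 27.6 CPM in control 1 and 3, with a gap of 0.2754. The next contig inside and the next outside had gaps of 0.2758 and 0.2740. The 150 contigs are thus the end of a continuous distribution.

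**Figure D2:**
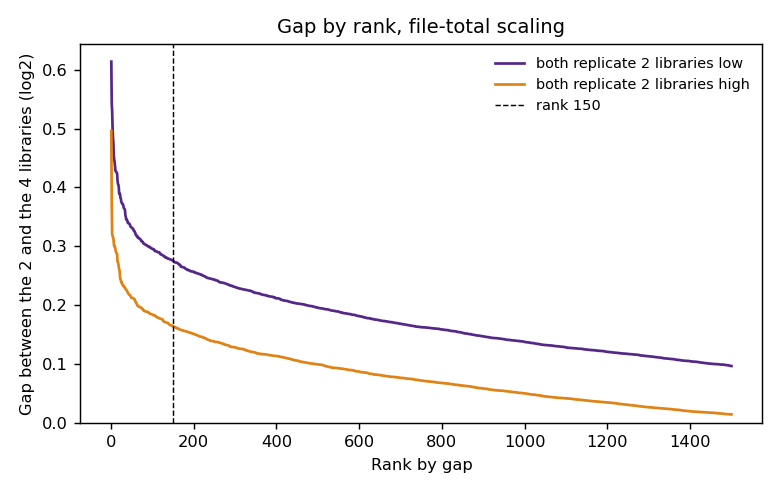
The gap (log2) is plotted against its rank, for contigs with both replicate 2 libraries low (purple) and, with the signs turned, for contigs with both high (orange); levels are scaled by file totals. At rank 150, the dashed line, the gap is 0.28 for the low order and 0.16 for the high order, and neither curve has a step there. From rank 1 to rank 2 the high order falls from 0.50 to 0.37 and the low order from 0.61 to 0.54.

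Low levels in both libraries numbered 2 were common. Both lay below all 4 other libraries in 3259 of the 14313 kept contigs (22.8%), and both lay above them in 1735 (12.1%). This balance depended on the scaling of the libraries: with TMM scaling 2253 contigs (15.7%) had both lowest and 2697 (18.8%) had both highest, and with DESeq2 size factors 2180 (15.2%) and 2760 (19.3%). The gap at rank 150 was 0.28 in the low order and 0.16 in the high order with file totals, and 0.23 and 0.21 with TMM scaling. All 150 contigs kept both libraries numbered 2 below the other 4 under TMM and under DESeq2 size factors, which the size of their gaps fixes. The TMM factors lay only between 0.975 (control 2) and 1.04 (control 1), too close together to close a gap of 0.28. The DESeq2 size factors moved the libraries about as little.

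The same difference appeared in the 2 groups when each was read on its own. Over the 14313 kept contigs, the log2 difference of AdOx 2 from AdOx 1 and 3 and that of control 2 from control 1 and 3 had a Pearson correlation of 0.71 and a Spearman correlation of 0.71 across contigs, from libraries that the 2 differences do not share. Contigs are not independent replicates, and each difference rests on 1 library numbered 2. When contigs were ordered on the control libraries alone, the 150 with control 2 farthest below control 1 and 3 had AdOx 2 below AdOx 1 and 3 in 145 cases, against 47.7% of all kept contigs, with a median difference of 1.38-fold in AdOx. Of these, 46 were among the 150 contigs described here. When ordered on the AdOx libraries alone, 135 of 150 had control 2 below control 1 and 3, against 40.6% of all kept contigs, with a median difference of 1.32-fold. Both orders were made after the data were seen and are descriptions without a test.

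**Figure D3:**
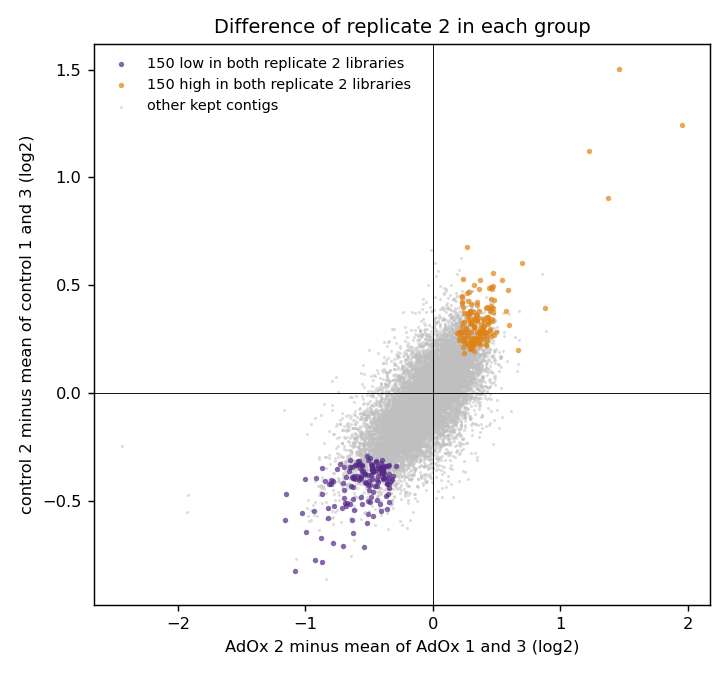
Each point is a kept contig, with the log2 difference of AdOx 2 from the mean of AdOx 1 and 3 on the horizontal axis and that of control 2 from the mean of control 1 and 3 on the vertical axis; purple marks the 150 contigs low in both, orange the 150 high in both, grey the rest. The cloud runs along the diagonal, and the purple points reach -1.16 in AdOx and -0.83 in control.

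AdOx 2 was farther from its group than control 2. The signed log2 difference of replicate 2 from replicates 1 and 3 was more negative in AdOx than in control in 122 of the 150 contigs (81.3%). Over all kept contigs, whose differences have either sign, the AdOx value was the lower in 56.1%. AdOx 2 lay below control 2 in 125 of the 150 (83.3%), against 48.2% of all kept contigs. That background again includes contigs with the libraries numbered 2 high, and both values of the 150 entered the choice. The share was not computed for all contigs with both libraries numbered 2 lowest. The median log2 difference of AdOx 2 from control 2 was -0.11, with a range from -0.56 to 0.16. Under TMM and DESeq2 size factors AdOx 2 lay below control 2 in 126 and 128 contigs. The 150 contigs that were high in both libraries numbered 2 had the opposite order, with AdOx 2 above control 2 in 117 of 150 and a median difference of 0.08. AdOx 2 deviated more over all kept contigs too, with an SD across contigs of 0.25 on the log2 scale, against 0.18 for control 2. There is 1 library numbered 2 in each group, so the difference between them has no replicate check.

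The 4 libraries numbered 1 and 3 were close to each other in these contigs. The highest of the 4 exceeded the lowest by a median of 0.17 on the log2 scale, against 0.24 over all kept contigs, which the choice of contigs by the lowest of the 4 favours. The highest of the 4 was AdOx 3 in 66 contigs (44.0%, against 24.7% of all kept contigs), control 1 in 45 (30.0%, against 26.5%), control 3 in 26 (17.3%, against 20.0%) and AdOx 1 in 13 (8.67%, against 28.8%). With TMM and DESeq2 size factors AdOx 3 was the highest in 54 to 56 contigs. The share over all kept contigs was not computed under these scalings. In 3 contigs the highest of the 4 was at least 1.5-fold the lowest, and in all 3 it was control 1.

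Whether AdOx changed these contigs is a different contrast from the one that chose them. With all 6 libraries, the quasi-likelihood test of edgeR (Benjamini-Hochberg adjusted) called none of the 150 contigs at an adjusted p under 0.05, and 57 of the 38728 contigs tested (0.147%). At that background well under 1 call would fall among 150 contigs. None of the 150 had an unadjusted p under 0.05 in edgeR or in DESeq2's Wald test, against 8.99% of all contigs in edgeR and 4.26% in DESeq2, and the lowest adjusted p was 0.669 with edgeR and 0.827 with DESeq2. The choice bears on this count: each group holds 1 of the 2 low libraries, so the 3 AdOx libraries of a chosen contig can never lie wholly beyond the 3 control libraries, and the low library widens the spread within its group. The fold changes were small. The median log2 fold change of AdOx over control was -0.04, against 0.01 over all contigs tested, with a range from -0.29 to 0.18 and a median standard error of 0.14, and 48 contigs were higher and 102 lower in AdOx.

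The direction of that median depended on single libraries. Without AdOx 2 the median was 0.09 and 132 of the 150 contigs were higher in AdOx, whereas without control 2 it was -0.16 and 5 were higher. Without control 1 and without control 3 it was 0.01 and 0.02, with 78 and 97 contigs higher, and without AdOx 1 and without AdOx 3 it was -0.09 and -0.13, with 20 and 10 higher. Without AdOx 2 and control 2 together, a fit to replicates 1 and 3 of each group gave a median of -0.02 and a range from -0.35 to 0.27, with 59 contigs higher and 91 lower. In that fit edgeR called none of the 150, the lowest adjusted p was 0.453, and 3 had an unadjusted p under 0.05, 2 higher and 1 lower. Over all 38968 contigs of that fit 43 were called, and 8.85% had an unadjusted p under 0.05. AdOx 1 and 3 both lay above control 1 and 3 in 30 of the 150 contigs (20.0%), against 29.4% of all kept contigs, and both lay below in 24 (16.0%), against 16.5%. A contig with a large difference between the groups has a low value among the 4 libraries and is less likely to be chosen.

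**Figure D4:**
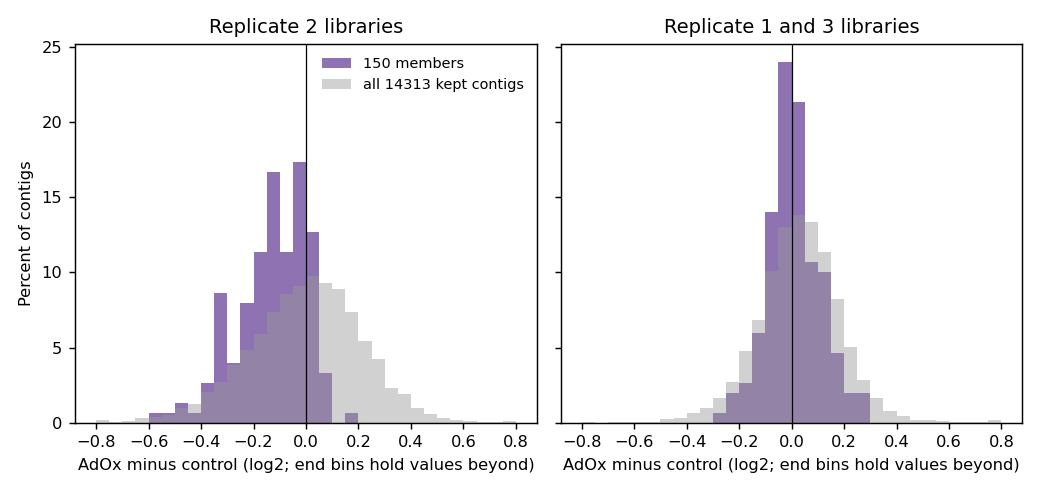
The percent of contigs is plotted against the log2 difference of AdOx from control, for the replicate 2 libraries (left, AdOx 2 minus control 2) and the replicate 1 and 3 libraries (right, difference of means), with the 150 contigs in purple and all kept contigs in grey. The 150 contigs lie mostly below 0 on the left (median -0.11) and around 0 on the right (median 0.00), where all kept contigs have a median of 0.03.

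For the 2 contigs with the largest gap the log2 fold change of AdOx over control was -0.11 ± 0.24 (SE, edgeR adjusted p = 0.921) in comp84463_c0_seq1 and -0.13 ± 0.22 (SE, edgeR adjusted p = 0.904) in comp140744_c0_seq4. Both turned positive, at 0.14 and 0.15, without AdOx 2, and comp84463_c0_seq1 also without control 1, at 0.13, and without both libraries numbered 1, at 0.08.

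The 2 contigs with the largest AdOx over control fold changes were comp140515_c0_seq7 and comp131747_c0_seq1. Contig comp140515_c0_seq7 had 25.4, 14.9 and 28.1 CPM in AdOx 1, 2 and 3, against 23.6, 15.3 and 21.0 CPM in control 1, 2 and 3. The groups overlapped, and AdOx 2 and control 2 were nearly equal. Its log2 fold change was 0.18 ± 0.18 (SE, n = 3 libraries per group, edgeR adjusted p = 0.796). Without the libraries numbered 2 it was 0.24 ± 0.10 (SE, n = 2 per group, edgeR adjusted p = 0.512). Contig comp131747_c0_seq1, the only contig of its component, had 15.0, 8.65 and 16.4 CPM in AdOx 1, 2 and 3, against 15.2, 8.78 and 11.8 CPM in control 1, 2 and 3. Control 3 was the library that differed most between the groups at the same number. Its log2 fold change was 0.16 ± 0.19 (SE, edgeR adjusted p = 0.845), and its sign turned without AdOx 3, without control 2 and without both libraries numbered 3.

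The 2 contigs with the most negative fold changes were comp146448_c0_seq4 and comp146349_c1_seq4. The first had 14.0, 7.69 and 13.2 CPM in AdOx 1, 2 and 3, against 20.6, 9.69 and 12.4 CPM in control 1, 2 and 3. The second had 9.26, 6.98 and 11.6 CPM in AdOx 1, 2 and 3, against 15.9, 7.55 and 10.1 CPM in control 1, 2 and 3. In both, control 1 stood above the other 5 libraries and AdOx 3 was above control 3. The log2 fold change was -0.29 ± 0.22 (SE, edgeR adjusted p = 0.711) for comp146448_c0_seq4 and -0.28 ± 0.20 (SE, edgeR adjusted p = 0.716) for comp146349_c1_seq4. Without control 1 these fold changes were 0.04 and 0.03, and without both libraries numbered 1 that of comp146349_c1_seq4 was 0.05.

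None of the 150 contigs is among the 119 of the authors' deposited table of differential expression, all of which are kept contigs. The table holds 0.831% of the 14313 kept contigs, a share at which about 1 of 150 would be listed, so the count of 0 is near that background. One contig of a component that holds a chosen contig is in that table, with a log2 fold change of 0.67 and an adjusted p of 2.23e-06 in the authors' deposited table. Its own gap, from the deposited counts, was 0.02. The label of the authors' table may mean that only part of the replicates entered their fit. Which libraries entered it is not given in the labels read here. What the count of 0 and the fold change of 0.67 say about the low libraries was therefore not tested.

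The 150 contigs came from 129 components. Of these, 113 components held 1 of them, 11 held 2 and 5 held 3. They came from components with many contigs more often than kept contigs in general: 65 of 150 (43.3%) belonged to components of 5 or more contigs, against 25.9% of all kept contigs, and 24 (16.0%) were the only contig of their component, against 35.6%. The median difference of replicate 2 was similar across these classes, at 1.43-fold in AdOx and 1.33-fold in control for components of 5 or more contigs, 1.40-fold and 1.31-fold for components of 2 to 4 contigs, and 1.52-fold and 1.31-fold for single contigs. Counts divided among several contigs are lower for each contig, and the sources used here do not state how reads matching several contigs were counted.

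The low level in the libraries numbered 2 was mostly shared by the rest of the component. When all contigs of a component were summed, both libraries numbered 2 lay below the other 4 in 122 of the 129 components, against 2121 of 10476 component totals with a mean of at least 8 CPM (20.2%). Each total includes the chosen contig, whose low values were the choice, so the choice favours this count. For the 24 components of a single contig the total is the contig's own value. Among the 105 components of several contigs both libraries numbered 2 were lowest in 98. The totals of these 105 had a median log2 difference of -0.39 in AdOx and -0.27 in control. The 129 components also held 325 kept contigs that were not chosen. In 239 of these (73.5%) both libraries numbered 2 were below the other 4, against 22.8% of all kept contigs, and in none were both above. Read one group at a time, AdOx 2 was below AdOx 1 and 3 in 295 of the 325 and control 2 below control 1 and 3 in 267. Contigs of a component may share reads, so these are not independent of the chosen contigs.

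For 120 of the 150 contigs the other reads of the component had in sum a mean of at least 8 CPM. Only the contig itself was taken out, so the other reads can include other chosen contigs. Of the 150, 37 shared their component with another chosen contig, and such a component can enter more than once. The choice of the contigs therefore favours the counts and medians of these other reads. These other reads were lower in AdOx 2 than the mean of AdOx 1 and 3 for 113 of the 120, and lower in control 2 than the mean of control 1 and 3 for 111. The median log2 difference of the other reads was -0.34 in AdOx and -0.23 in control, against -0.50 and -0.40 for the chosen contigs themselves. The chosen contig was the steeper in both groups in 99 of the 120, which choosing the most extreme contigs favours. In 66 of the 120 the other reads showed at least 50% of the contig's log2 difference in both groups.

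**Figure D5:**
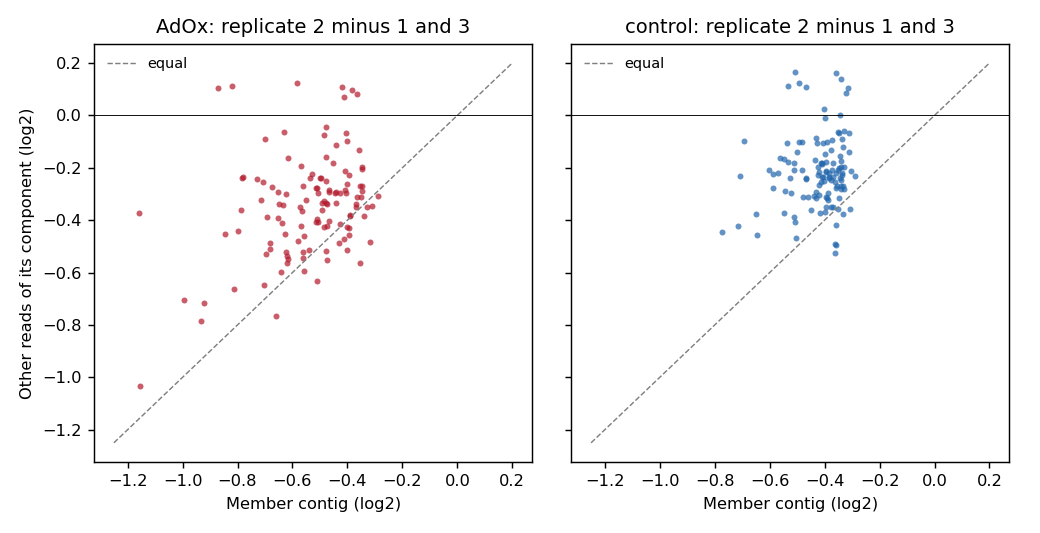
For the 120 contigs whose component has other reads at 8 CPM or more, the log2 difference of replicate 2 from replicates 1 and 3 is shown for the contig (horizontal) and for the other reads of its component (vertical), in AdOx (left) and control (right); the dashed line marks equal values. Most points lie below 0 and above the dashed line, with medians of the other reads of -0.34 in AdOx and -0.23 in control. The other reads can include other chosen contigs of the component, which favours low values.

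Of the 5 components with 3 chosen contigs, the one with the highest-ranked contig was comp143927_c2. It has 16 listed contigs, all of them kept, and all 16 had both libraries numbered 2 below the other 4. The component total was 339 CPM in AdOx 2, against 456 and 448 CPM in AdOx 1 and 3, and 363 CPM in control 2, against 435 and 420 CPM in control 1 and 3. Its highest-ranked contig held 2.52% of these reads, and the first contig left out of the 150 belongs to this component as well. In all 5 such components every kept contig had both libraries numbered 2 below the other 4.

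Chosen contigs rarely went against the rest of their component. In 3 contigs the other reads of the component were not lower in replicate 2 in either group. Of these, 2 were comp140515_c0_seq7, named above, and the other chosen contig of its component. The remaining contig belonged to another component and was lower by -0.59 in AdOx and -0.32 in control. Its other reads were higher by 0.12 and 0.10. The component of comp140515_c0_seq7, comp140515_c0, has 12 contigs, of which 11 were kept and 2 chosen. Only these 2 of the 11 had both libraries numbered 2 below the other 4. The contig that was not kept, with a mean of 2.31 CPM, also had both below the other 4. It was lower by -0.64 in AdOx and -0.54 in control. The component total was 1864 CPM in AdOx 2, against 1697 and 1782 CPM in AdOx 1 and 3, and 1639 CPM in control 2, against 1426 and 1629 CPM in control 1 and 3. The total was thus slightly higher in AdOx 2 and control 2, by 0.10 on the log2 scale in each group, while comp140515_c0_seq7, with 1.29% of the component's reads, was lower by -0.82 in AdOx and -0.53 in control. The second chosen contig of the component held 0.527% of its reads and was lower by -0.87 and -0.47. The part of reads shared between contigs of the component was not tested.

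The chosen contigs were not set apart by their read depth. Their mean level over the 6 libraries had a median of 17.7 CPM and a range from 8.21 to 1001 CPM, against a median of 20.5 CPM for all kept contigs. These values are not corrected for contig length, which the files do not give, so they describe depth and not the abundance of one transcript relative to another. Counts per contig ran from 75 to 11529 in AdOx 2 and from 119 to 15937 in control 2. From these counts, the counting error of a contig's log2 difference had a median of 0.12 in AdOx and 0.10 in control, and at most 0.18 and 0.15. These errors leave out the spread between libraries, and a contig chosen for a large gap has in part been chosen for counting error in that direction. Contigs with a mean of at least 20 CPM, 68 of the 150, differed by a median of 1.44-fold in AdOx and 1.29-fold in control, and those under 20 CPM by 1.42-fold and 1.33-fold.

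The most abundant of the 150 contigs, named here only by its rank because it was singled out after its values were seen, had 739 CPM in AdOx 2, against 1117 and 1145 CPM in AdOx 1 and 3, and 853 CPM in control 2, against 1101 and 1050 CPM in control 1 and 3. It rests on at least 11529 reads in each library and ranked 91 by gap.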

How the data were processed

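Per the labels, each of the 6 libraries pooled 6 intact animals; titles gave the groups and numbers. The deposited files hold raw counts of reads per contig, whole numbers with contigs at 0 left out. The submitters' processing notes name Bowtie2 2.2.3 and DESeq2; the transcriptome, strand use and treatment of reads matching several contigs were not given in the sources used here. The authors' deposited table adds, per the file headers, log2 fold changes, p-values and scores (mean normalized counts, standard errors and Wald statistics). The members, lists and tests were chosen with earlier results of these data known. Named contigs are the 2 with the largest gap and the 2 with the largest and 2 with the smallest fold change of AdOx over control; the marker and pathway lists could not be used without gene names.

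CPM were computed on file totals, with a pseudocount of 0.5 on the log2 scale. AdOx was compared with control by edgeR 4.0.16 in R 4.3.3 (filterByExpr, TMM, quasi-likelihood test, two-sided, Benjamini-Hochberg over all contigs tested), checked on simulated counts; all 150 contigs passed the filter. The standard error is the absolute log2 fold change divided by the square root of F. The alternatives were DESeq2 1.42.0, other scalings, filters and thresholds, a block for the replicate number, fits without 1 library or number, and component totals. Scalings of the descriptive counts were added after the data were seen.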

Additional observations from a re-analysis of the deposited data

How the results depend on the processing

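No contig of the 150 was called at an adjusted p of 0.05 in any setting run, and the lowest adjusted p was 0.0888, with the replicate block. The count over all contigs tested, 57, was 131 with DESeq2's Wald test, 920 with the replicate block, 18 at an adjusted p of 0.01 and 102 at 0.1, and it ranged from 9 to 132 when libraries were left out (16 without AdOx 1, 132 without AdOx 2, 29 without control 1, 9 without control 3, 10 without replicate 1, 27 without replicate 3); the cause was not tested. With the block, 9 of the 150 had an unadjusted p under 0.05, all lower in AdOx, against 16.1% of all contigs tested; without AdOx 2 it was also 9, all higher, against 7.50%, and without control 2 it was 9, all lower, against 10.7%. The replicate number was not taken to pair the libraries in the main fit. After group means were removed, AdOx and control libraries of number 1, 2 and 3 correlated across contigs at 0.09, 0.33 and 0.13, the first under the limit of 0.1. Control 1 correlated better with AdOx 3 (0.12) than with AdOx 1. AdOx 2 correlated at -0.18 and -0.16 with control 1 and 3, and control 2 at -0.14 and -0.25 with AdOx 1 and 3. With group means removed, the positive value between the libraries numbered 2 forces negative values among these. They are therefore no separate observation. The correlation of 0.33 is a difference shared by the libraries numbered 2 that the main fit leaves out, and pairing is not excluded. The median log2 fold change of the 150 ranged from -0.16 to 0.09 when libraries were left out. Over the same fits, comp84463_c0_seq1 ranged from -0.39 to 0.14, comp140744_c0_seq4 from -0.33 to 0.15, comp131747_c0_seq1 from -0.017 to 0.36, comp146448_c0_seq4 from -0.51 to 0.036, comp146349_c1_seq4 from -0.52 to 0.047, and comp140515_c0_seq7 from 0.01 to 0.38. For the median difference of replicate 2, the rule was run again in each setting and the newly chosen contigs were read. In AdOx it was -0.51 for the contigs described here, -0.46 with TMM and -0.45 with DESeq2 size factors. With a minimum of 1 CPM in the rule it was -0.66 in AdOx and -0.61 in control. In control it was -0.40 for the contigs described here. Of the 150 contigs, 28 were chosen again with that minimum, 68 with a minimum of 20 CPM, and 76 belonged to the 150 component totals with the largest gap; other scalings and a pseudocount of 2 CPM kept 117 to 139.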
